A study of Mus musculus with 11 samples.

Results

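Myeloperoxidase and the other proteins of azurophil granules, the primary granules that form first as a neutrophil matures, are encoded by genes that switch on in granulocyte-monocyte progenitors. A set of 9 such genes (Mpo, Elane, Prtn3, Ctsg, Prss57, Fcnb, Cst7, Ms4a3 and Igsf6), chosen by symbol from the 55291 gene symbols of the count table, was followed in LSK cells, the Lineage-negative, cKit-positive and Sca-1-positive bone marrow fraction in which stem cells and the earliest multipotent progenitors are found. RNA, per the labels of individual animals, was sequenced from 4 Phf6R274X Tg mice (Tg), 3 Phf6 knock out mice (KO) and 4 wild type mice (WT), all of the strain C57BL/6. Phf6 encodes a chromatin protein with plant homeodomain fingers, is carried on the X chromosome and is recurrently mutated in leukaemia, and the R274X allele has a premature stop codon. The labels give no age, sex or batch, and neither the promoter of the transgene nor the way in which the knock out was made. All 9 genes were present in the table, had counts above 0 in all 11 libraries and passed the filter on low counts. They were chosen with earlier results of these data known.

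As background, azurophil granules carry the agents with which neutrophils kill and digest microbes. Myeloperoxidase (Mpo) makes hypochlorous acid from hydrogen peroxide and chloride. Elastase (Elane), proteinase 3 (Prtn3), cathepsin G (Ctsg) and the arginine-specific protease Prss57 are serine proteases that are stored active, after cathepsin C has removed their propeptide and while serglycin holds them in the granule. Cystatin F (Cst7) inhibits lysosomal cysteine cathepsins, cathepsin C among them. Ficolin B (Fcnb) is a lectin that can start the complement cascade. Ms4a3 is a membrane protein whose gene marks granulocyte-monocyte progenitors in the mouse, and Igsf6 is an immunoglobulin superfamily membrane protein of myeloid cells; neither is a granule enzyme. Transcription of the granule genes is known to depend on factors of the C/EBP family, on PU.1, on Myb and on Runx1.

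The genes lie on 6 chromosomes (GRCm38, GENCODE M21, all annotated as protein-coding). Prss57 (chr10:79781474-79790961, minus strand), Prtn3 (chr10:79874476-79883174, plus strand) and Elane (chr10:79886247-79888215, plus strand) fall within 106.7 kb of chromosome 10. Mpo is at chr11:87793581-87804413 (plus strand), Ctsg at chr14:56099881-56102574 (minus strand), Ms4a3 at chr19:11629496-11640851 (minus strand) and Igsf6 at chr7:121064067-121074572 (minus strand). Fcnb (chr2:28076378-28084885, minus strand) and Cst7 (chr2:150570415-150578944, plus strand) are far apart on chromosome 2. Prss57 shares 1157 exonic bases (40.7% of its own) with Fstl3 on the opposite strand, Mpo shares 512 (15.0%) with the antisense gene Gm11505 and Prtn3 shares 159 (9.18%) with Plppr3. Igsf6 lies inside Mettl9 on the opposite strand but shares no exonic base with it. The strand setting of the counting is not given in the sources used here, so reads over shared bases cannot be assigned to a strand. Fstl3 reached at most 1.81 CPM (a gene's count relative to the library's TMM-scaled total) in any library and Gm11505 at most 16.0 CPM. Plppr3 held 58.3 to 171 CPM, below Prtn3 in every library. Mettl9 held 60.5 to 77.1 CPM, above Igsf6 in every KO and WT library.

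The sequence before the transcription start was read because granule genes are known targets of the factors named above. RefSeq promoters (GRCm38.p6) matched 8 of the 9 symbols, Prss57 being the one not matched. In the 250 bases before the RefSeq start, the PU.1 motif GAGGAA was found on either strand in 5 of the 8, where 23.3% of 32851 promoters of the same length hold it. The C/EBP motif TTNNGNAA, whose reverse complement TTNCNNAA reads the other strand, was found in 4 of 8, against 36.8% of all promoters. AACNG (Myb) was found in 7 of 8, against 74.2%, and TGTGGT (Runx) in 2 of 8, against 14.05%. The PU.1 letters occurred in the peroxidase and in all 3 matched serine proteases, and the C/EBP letters in Ms4a3, Fcnb, Igsf6 and Cst7, with Igsf6 holding both. Below are the stretches for the 4 enzymes and for the 2 genes of that other group with the largest rise in Tg, each cut short of any annotated exon of its gene and written 5′ to 3′ along the gene's strand, with GAGGAA and the C/EBP matches in capitals. A match is a description of these letters and not a site of binding.
Mpo, chr11:87793534-87793580, plus strand: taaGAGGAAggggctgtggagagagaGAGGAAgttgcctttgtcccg
Elane, chr10:79886062-79886246, plus strand: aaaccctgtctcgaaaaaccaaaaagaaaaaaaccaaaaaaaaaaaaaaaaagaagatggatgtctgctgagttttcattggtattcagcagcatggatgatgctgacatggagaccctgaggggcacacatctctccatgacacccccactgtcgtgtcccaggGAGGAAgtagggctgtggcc
Prtn3, chr10:79879417-79879613, plus strand: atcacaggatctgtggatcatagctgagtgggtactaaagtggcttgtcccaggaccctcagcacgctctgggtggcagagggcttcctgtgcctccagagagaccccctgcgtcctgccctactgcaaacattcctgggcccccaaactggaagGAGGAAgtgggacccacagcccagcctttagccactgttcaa
Ctsg, chr14:56102575-56102824, minus strand: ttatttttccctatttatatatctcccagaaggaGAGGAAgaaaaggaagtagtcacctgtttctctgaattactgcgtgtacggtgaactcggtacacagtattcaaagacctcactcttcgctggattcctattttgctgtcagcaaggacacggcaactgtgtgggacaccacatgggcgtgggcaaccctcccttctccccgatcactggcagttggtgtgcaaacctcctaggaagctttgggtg
Ms4a3, chr19:11640852-11641101, minus strand: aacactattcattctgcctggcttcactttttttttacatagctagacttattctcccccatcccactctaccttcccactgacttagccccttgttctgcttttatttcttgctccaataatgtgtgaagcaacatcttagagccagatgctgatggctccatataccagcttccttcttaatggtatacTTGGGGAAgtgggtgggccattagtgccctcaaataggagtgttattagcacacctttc
Fcnb, chr2:28084886-28085128, minus strand: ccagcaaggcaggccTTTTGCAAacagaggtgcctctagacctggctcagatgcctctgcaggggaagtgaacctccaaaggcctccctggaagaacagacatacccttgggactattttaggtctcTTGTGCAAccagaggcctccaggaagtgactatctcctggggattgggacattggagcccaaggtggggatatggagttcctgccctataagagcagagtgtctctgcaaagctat
In Elane and Prtn3 the GAGGAA began 85 and 95 bases before the RefSeq start, and in Mpo and Ctsg more than 200 bases before it. These distances depend on the annotation. The Mpo and Elane stretches end at the base before the GENCODE start given above, which lies upstream of the RefSeq start. The Prtn3 stretch lies inside the GENCODE interval of Prtn3, outside its exons.

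The libraries held 20990446 to 45632018 counts, so that 3 counts, the limit that a count of 0 allows, equalled 0.0657 to 0.143 CPM of the library total (this covers counting error only, as there are no molecular identifiers). Phf6, which checks the labels, read 183 to 278 CPM in Tg, 15.4 to 23.96 in KO and 110 to 142 in WT. The genes that define the sort were present in every library, with Kit at 579 to 884 CPM and Ly6a, the Sca-1 gene, at 20.04 to 40.6 CPM, and none of the 11 stem cell markers listed was called in Tg or in KO against WT. Procr, a stem cell surface receptor gene, was higher in Tg than in KO (log2 fold change 1.02, SE 0.26, adjusted p = 0.0413 by edgeR), a call lost without any one of 7 libraries (up to 0.143 without KO replicate 3). Xist, which is transcribed from an inactive X chromosome, was at 0.0307 to 0.324 CPM in Tg, 32.6 to 41.1 in KO and 48.8 to 54.2 in WT. The 4 Y-linked genes read (Ddx3y, Uty, Kdm5d and Eif2s3y) summed to 54.3 to 368 CPM in Tg, and 4 libraries (KO replicate 1 and WT replicates 1, 2 and 4) held both Xist and 21.1 to 134 CPM of Y-linked reads. The Tg genotype and the absence of Xist cannot be told apart, and the counts of the 9 genes called are also given without those 4 libraries. With both kinds of read in 1 library, what n counts is uncertain for those 4, and whether each came from a single mouse was not tested.

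In Tg LSK cells all 9 genes rose over WT, between 3.54-fold for Cst7 and 29.1-fold for Fcnb. Together they took 2.38%, 2.03%, 0.523% and 0.989% of all counts in the 4 Tg libraries, 0.426%, 0.386% and 0.491% in the KO libraries and 0.201%, 0.151%, 0.278% and 0.360% in the WT libraries. The peroxidase gene and the serine protease genes dominated this sum, and the lowest Tg library lay above the highest WT library for every gene. Bulk RNA cannot tell more cells that express a gene from more RNA per cell.

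Mpo, the most abundant of the 9, was read at 15322, 14905, 3451 and 6395 CPM in Tg replicates 1 to 4, at 3096, 2919 and 3833 CPM in KO and at 1681, 948, 2171 and 2683 CPM in WT. All Tg libraries lay above all WT libraries, while Tg replicate 3 lay below KO replicate 3. Its level averaged 10018 ± 6007 CPM in Tg (SD, n = 4), 3283 ± 485 in KO (n = 3) and 1871 ± 739 in WT (n = 4), a log2 fold change of Tg over WT of 2.42 (SE 0.45, adjusted p = 0.0170 in the quasi-likelihood test of edgeR over 17183 genes). The call was lost without Tg replicate 1 (2.14, adjusted p = 0.0527) and without WT replicate 1.

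Elane, the neutrophil elastase, had the largest fold change among the enzymes. It was read at 3875, 2713, 451 and 1341 CPM in Tg, at 312, 253 and 332 CPM in KO and at 33.7, 119.7, 71.0 and 252 CPM in WT. The 3 groups did not overlap, and within Tg and within WT the highest library exceeded the lowest by 8.59-fold and 7.47-fold, against 1.31-fold within KO. The log2 fold change of Elane in Tg against WT was 4.14 (SE 0.71, adjusted p = 0.0130 by edgeR), and it was 4.81 without WT replicate 4.

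Prtn3, the proteinase that is the target of autoantibodies in human vasculitis, held 2370.1, 1652, 452 and 951 CPM in Tg, 353, 304 and 359.9 CPM in KO and 98.6, 163, 200.1 and 284 CPM in WT. Here too the groups formed separate ranges with KO between Tg and WT. Ctsg, which cleaves after bulky residues as chymotrypsin does, held 1726, 1648, 369 and 649.7 CPM in Tg, 279, 216 and 276 CPM in KO and 74.7, 122, 185 and 226 CPM in WT, where KO replicate 2 fell below WT replicate 4. The log2 fold change of Tg over WT was 2.86 for Prtn3 (SE 0.46, adjusted p = 0.0105) and 2.85 for Ctsg (SE 0.49, adjusted p = 0.0127), both by edgeR, and no single library ended either call.

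Prss57, the serine protease gene of lowest level, was the one gene of the 9 whose fitted level in KO was not above that in WT. It held 209, 129, 46.6 and 98.9 CPM in Tg, 25.6, 28.3 and 30.1 CPM in KO and 25.6, 20.6, 35.2 and 39.6 CPM in WT. Its log2 fold change of Tg over WT was 2.00 (SE 0.37, adjusted p = 0.0162 by edgeR), and without WT replicate 1 the adjusted p was 0.0502.

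**Figure D1:**
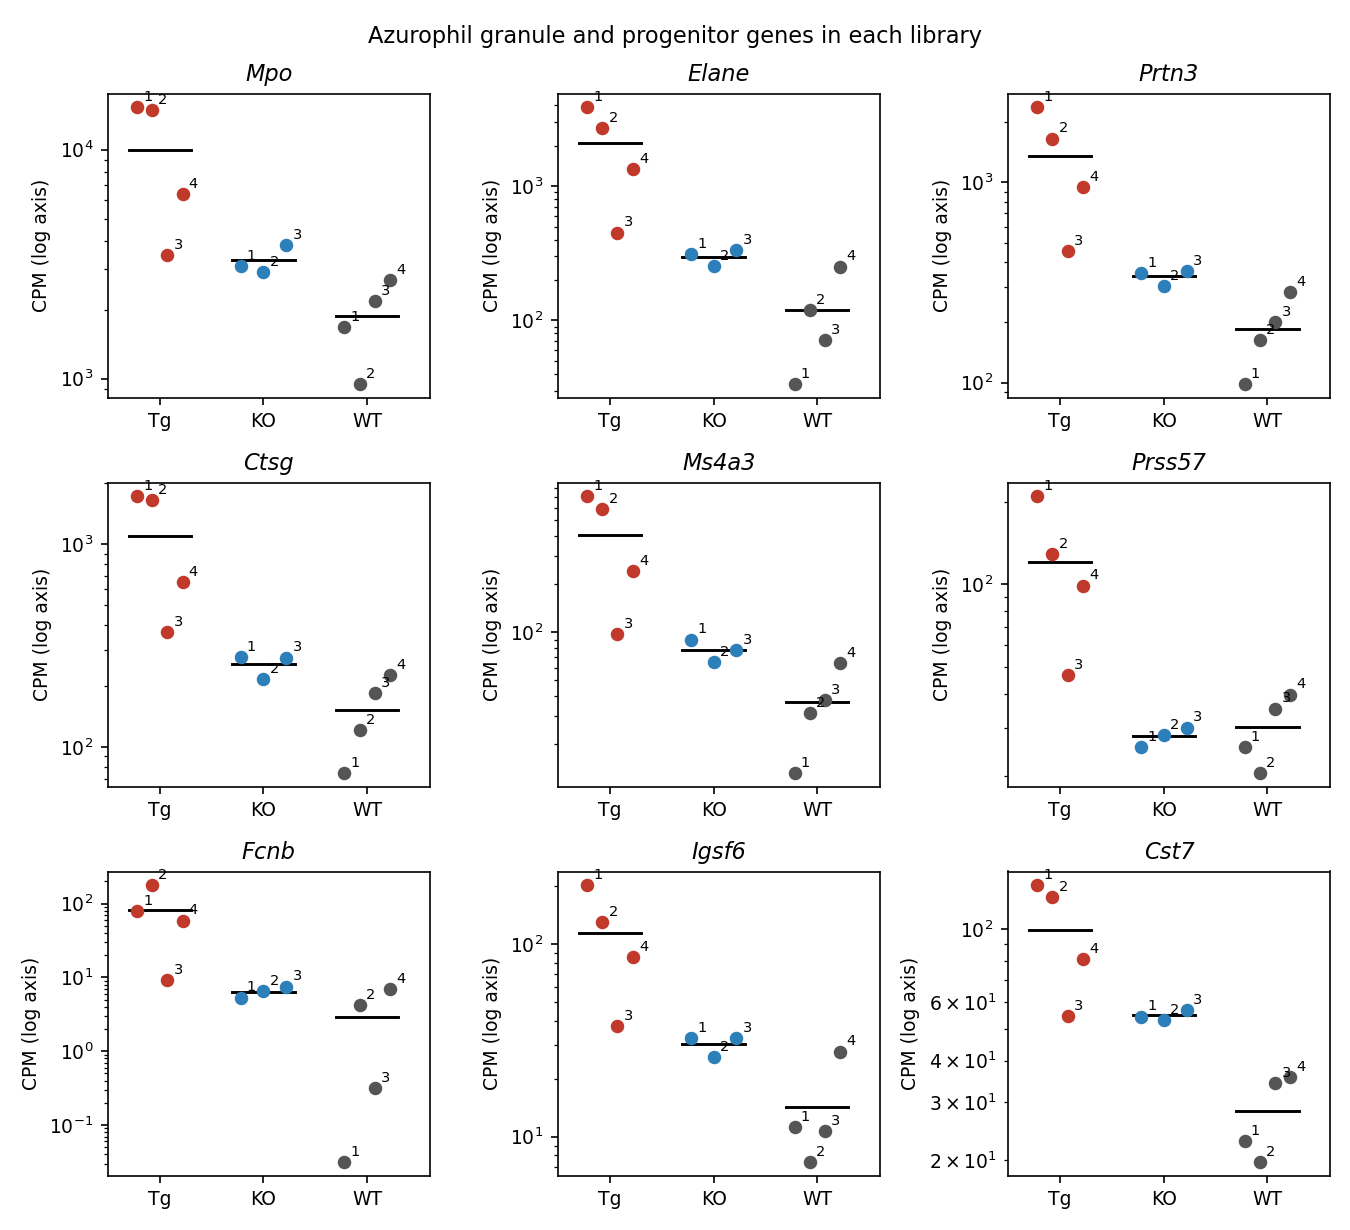
Level of each gene in each library (TMM-normalised CPM, log axis; points are libraries, bars are group means) in Tg (n = 4), KO (n = 3) and WT (n = 4). The Tg libraries lie above the WT libraries in all 9 panels, and the KO libraries lie close together, as for Mpo at 2919 to 3833 CPM.

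Fcnb, the granule ficolin, was the most variable. It held 78.2, 176, 9.25 and 58.8 CPM in Tg, 5.31, 6.51 and 7.48 CPM in KO and 0.0318, 4.24, 0.317 and 6.95 CPM in WT, where the lowest values rest on 1 count in WT replicate 1 and 10 counts in WT replicate 3. Tg replicate 3 exceeded WT replicate 4 by little, and KO replicates 1 and 2 lay within the WT range. The log2 fold change of Tg over WT was 4.86 (SE 1.07, adjusted p = 0.0296 by edgeR), but 5.71 without WT replicate 4 and 4.12 without Tg replicate 2, and the call was lost without any one of Tg replicates 1 and 2 and WT replicates 1 and 2 (adjusted p up to 0.0845).

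Cst7, the cystatin that restrains granule cathepsins, varied least. It held 136, 125, 54.6 and 81.1 CPM in Tg, 54.3, 53.1 and 57.0 CPM in KO and 22.8, 19.7, 34.2 and 35.6 CPM in WT. The KO libraries lay at the level of the lowest Tg library, above every WT library. The log2 fold change of Tg over WT was 1.82 (SE 0.28, adjusted p = 0.00895 by edgeR), the smallest change and the smallest SE of the 9.

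The 2 membrane protein genes were higher in Tg as well. Ms4a3, the progenitor marker, held 705, 586, 97.2 and 241 CPM in Tg, 89.9, 65.0 and 77.1 CPM in KO and 13.2, 31.3, 37.7 and 64.0 CPM in WT, again 3 separate ranges. Igsf6 held 201, 129, 37.4 and 85.4 CPM in Tg, 32.5, 25.97 and 32.5 CPM in KO and 11.2, 7.41, 10.7 and 27.7 CPM in WT, with KO replicate 2 below WT replicate 4. Their log2 fold changes of Tg over WT were 3.48 (SE 0.60, adjusted p = 0.0135) and 3.01 (SE 0.51, adjusted p = 0.0127) by edgeR. Mettl9, the gene around Igsf6, was even across the libraries at 60.5 to 77.1 CPM, with a log2 fold change of 0.05 (adjusted p = 0.786).

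Thus 9 of 9 were called higher in Tg than in WT, where 2.54% of the 17183 genes tested were called higher, and 9 of 9 had groups that did not overlap, against 4.5% of genes tested. DESeq2 called 9 of 9 as well (4.58% of genes with an adjusted p) and limma-voom 8 (1.99%). Their median log2 fold change was 2.86, against 0.01 over all genes tested. As the 9 genes were chosen with earlier results of these data known, these shares are a description and not an independent test of the set. Leaving out the 4 libraries that hold both Xist and Y-linked reads leaves 1 WT library, which is assumed to vary like the others. The log2 fold changes then ran from 1.54 for Cst7 to 7.97 for Fcnb. The calls of the 9 did not hold in that fit, which also called far fewer of all genes, as given with the alternatives below.

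Within a group the libraries stood in much the same order for each gene. Tg replicate 1 was the highest of the 11 libraries for 8 of the 9 genes and Tg replicate 2 for Fcnb, and Tg replicate 3 was the lowest Tg library for all 9. WT replicate 4 was the highest WT library for all 9. WT replicate 1 was the lowest of the 11 libraries for 5 genes and WT replicate 2 for the other 4. The mean log2 CPM of the 9 genes was 9.55, 9.37, 7.14 and 8.38 in Tg, 6.76, 6.61 and 6.87 in KO and 4.51, 5.52, 5.52 and 6.60 in WT, so that WT replicate 4 lay just below the lowest KO library and Tg replicate 3 stood between the KO libraries and the other Tg libraries.

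**Figure D2:**
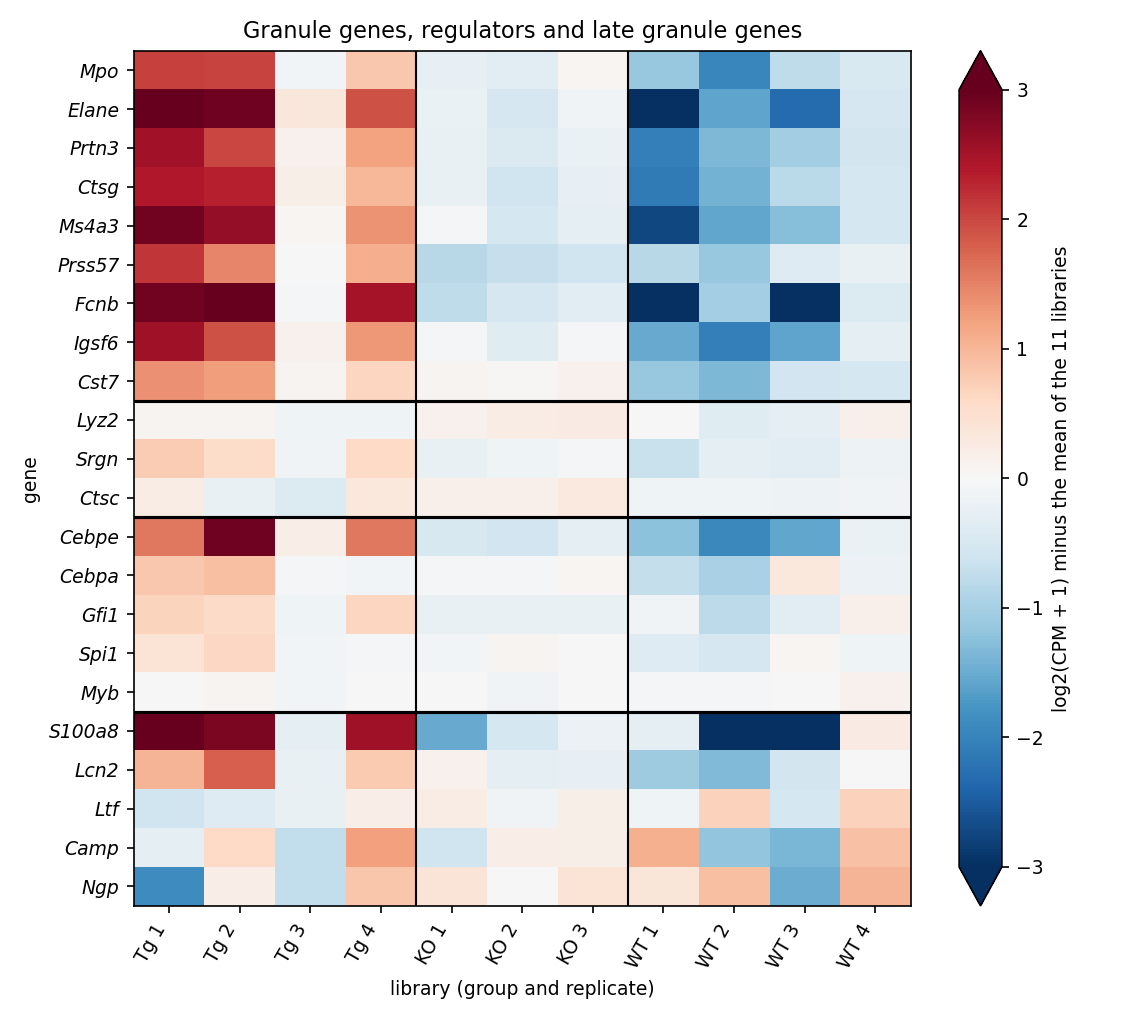
Deviation of each gene's log2(CPM + 1) from its mean over the 11 libraries (colour, clipped at 3 either way), with libraries in columns, Tg first, then KO, then WT, and in rows the 9 genes (top block), other granule genes, regulators and late granule genes. In the top block Tg replicate 3 is the palest Tg column for all 9 genes, while Lyz2, Ctsc and Myb further down vary little in any column.

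Tg exceeded KO by less than it exceeded WT for 8 of the 9 genes, Prss57 being the exception. Prss57 (log2 fold change of Tg over KO 2.11, SE 0.41, adjusted p = 0.0161), Prtn3 (2.00, SE 0.49, adjusted p = 0.0397) and Ctsg (2.09, SE 0.53, adjusted p = 0.0417) rose over KO by edgeR. Elane had a log2 fold change of 2.81 (SE 0.75, adjusted p = 0.0522), Ms4a3 2.40 (SE 0.64), Fcnb 3.65 (SE 1.12), Igsf6 1.90 (SE 0.53), Mpo 1.61 (SE 0.49) and Cst7 0.85 (SE 0.29, adjusted p = 0.114), and none of these 6 passed. So 3 of 9 were called higher, where 2.63% of genes tested were, and all 9 had an unadjusted p under 0.05 with a higher level in Tg, as 10.7% of genes tested did. The groups did not overlap for 7 of 9 (9.8% of genes tested), Mpo and Cst7 overlapping through Tg replicate 3. DESeq2 called 9 of 9 (4.77% of genes with an adjusted p) and limma-voom 1 (2.26%). These calls depended on single libraries: without Tg replicate 3 edgeR called all 9, and without any one of the 3 KO libraries it called 0. Without Tg replicate 1 or 2 the calls of Prtn3 and Ctsg were lost as well (adjusted p up to 0.144 and 0.154, both without KO replicate 2). Without the 4 libraries named above the log2 fold changes ran from 0.83 for Cst7 to 3.51 for Fcnb. The 3 calls did not hold in that fit, which also called fewer of all genes, as given with the alternatives below.

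In KO against WT no member passed. The fitted level in KO was above WT for 8 of the 9 genes, as for 48.8% of genes tested, with a median log2 fold change of 0.97 against -0.01 over all genes tested. Cst7 had a log2 fold change of 0.97 (SE 0.29, unadjusted p = 0.00598, adjusted p = 0.535), Elane 1.33 (SE 0.68), Fcnb 1.21 (SE 1.05), Igsf6 1.10 (SE 0.51), Ms4a3 1.09 (SE 0.59), Prtn3 0.86 (SE 0.46), Mpo 0.81 (SE 0.46), Ctsg 0.76 (SE 0.49) and Prss57 -0.11 (SE 0.39), with adjusted p from 0.535 to 0.976 by edgeR. The count called was 0 of 9 by edgeR (0.00582% of genes tested were called higher), by DESeq2 (0.306%) and by limma-voom (0 genes), and 1 of 9 had an unadjusted p under 0.05, where 3.33% of genes tested did so with a higher level in KO. All KO libraries lay above all WT libraries for 5 genes (Mpo, Elane, Prtn3, Ms4a3 and Cst7), against 3.79% of genes tested. KO and Tg were both set against the same WT libraries, so these values and those of Tg are not independent. Elane stood at 2.00, Fcnb at 2.05 and Prss57 at 0.045 when WT replicate 4 was left out.

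**Figure D3:**
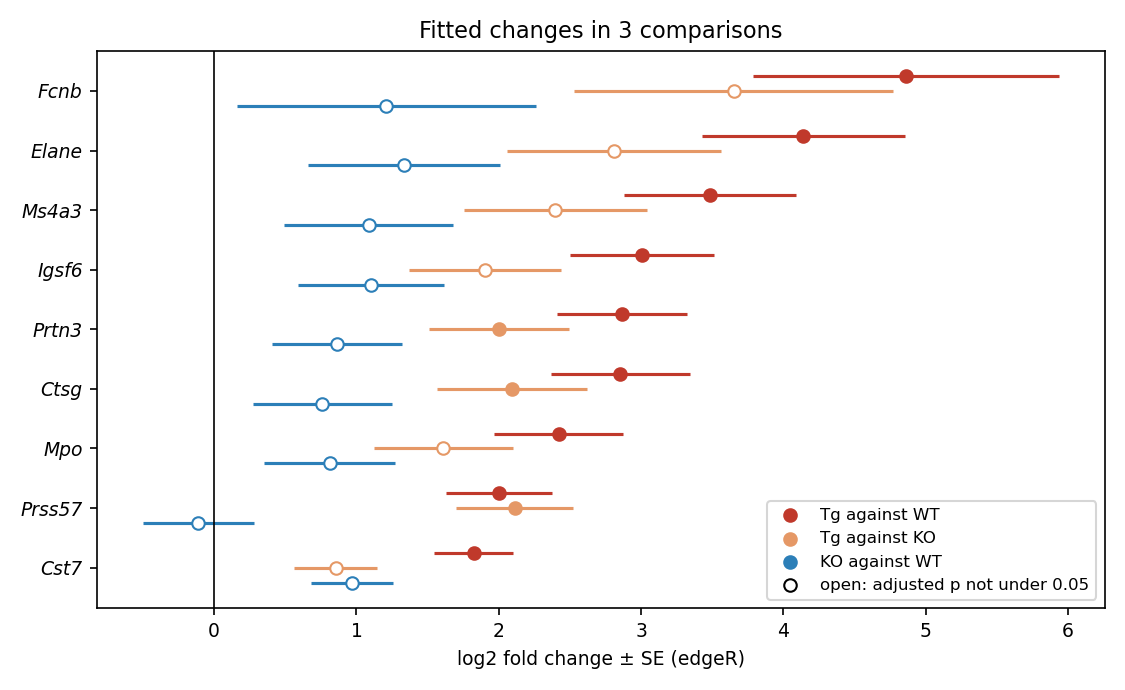
Log2 fold change of each gene (points, with 1 SE to either side, edgeR) in Tg against WT, Tg against KO and KO against WT, filled where the adjusted p was under 0.05. All 9 points are filled in Tg against WT, those of Prtn3, Ctsg and Prss57 in Tg against KO, and none in KO against WT.

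Levels were compared between the genes per kilobase of exon (CPM per kb), since the exonic length differs from 0.984 kb for Elane to 3.424 kb for Mpo. In Tg the order was Mpo at 2926 ± 1754 CPM per kb (SD, n = 4), Elane at 2129 ± 1532, Ctsg at 1063 ± 668 and Prtn3 at 783 ± 483, followed by Ms4a3 (216 ± 152), Cst7 (100.5 ± 38.4), Fcnb (60.2 ± 52.4), Igsf6 (52.1 ± 32.0) and Prss57 (42.5 ± 23.9). In KO it was Mpo (959 ± 142), Elane (304 ± 42.0), Ctsg (249 ± 34.4), Prtn3 (196 ± 17.8), Cst7 (55.6 ± 1.98), Ms4a3 (41.0 ± 6.63), Igsf6 (13.9 ± 1.73), Prss57 (9.85 ± 0.793) and Fcnb (4.81 ± 0.810). In WT it was Mpo (546 ± 216), Ctsg (147 ± 64.9), Elane (121 ± 96.8), Prtn3 (108 ± 44.7), Cst7 (28.5 ± 8.09), Ms4a3 (19.4 ± 11.2), Prss57 (10.6 ± 3.07), Igsf6 (6.55 ± 4.18) and Fcnb (2.16 ± 2.48). Mpo was first and its 3 companion proteases next in each group, but Ctsg, Elane and Prtn3 in WT lay within 1 SD of each other. In Tg the same held for Mpo and Elane, for Ctsg and Prtn3, and for Fcnb, Igsf6 and Prss57. Levels per exonic length rest on all annotated transcripts of a gene, which may not all be made in these cells.

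The make-up of the set within a library was then described by each gene's count as a share of the Mpo count, which does not depend on the scaling between libraries. Elane equalled 25.3%, 18.2%, 13.1% and 20.97% of the Mpo count in Tg, 10.1%, 8.66% and 8.67% in KO and 2.01%, 12.6%, 3.27% and 9.38% in WT. Every Tg library lay above every KO and WT library, narrowly so for Tg replicate 3 against WT replicate 2. The difference of Tg minus WT in the mean log2 ratio was 1.84 (exact two-sided permutation p = 0.0286, the smallest that 4 against 4 libraries allow, adjusted p = 0.171 over 24 ratio comparisons), and that of Tg minus KO was 1.05 (exact p = 0.0571, adjusted p = 0.171). The ratio of Elane to Prtn3 counts was 1.63, 1.64, 0.998 and 1.41 in Tg, 0.884, 0.833 and 0.924 in KO and 0.342, 0.736, 0.355 and 0.887 in WT, so the 2 neighbours on chromosome 10 were not in one fixed proportion.

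The log2 ratio to Mpo differed less between Tg and WT for Prtn3 (Tg minus WT 0.44, exact permutation p = 0.257), Ctsg (0.43, p = 0.171) Prss57 (-0.42, p = 0.0857), Cst7 (-0.50, p = 0.143), Igsf6 (0.66, p = 0.0571) and Ms4a3 (1.04, p = 0.0571). The Fcnb ratio differed by 3.71 (exact permutation p = 0.0571), with WT replicates 1 and 3 near the counting limit. Leaving out WT replicate 1 gave 2.36 for Fcnb, and leaving out WT replicate 2 gave 4.79. In KO minus WT the Prss57 ratio differed by -0.97 with no overlap (exact permutation p = 0.0286), and in Tg minus KO the Ctsg ratio differed by 0.46 with no overlap (p = 0.0286). None of the 24 ratio comparisons passed after adjustment, and the lowest adjusted p was 0.171. With 3 or 4 libraries a group the exact p could not fall under 0.0286 in any comparison. A few comparisons at that limit could therefore not pass, and the lack of a call does not show an unchanged make-up.

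**Figure D4:**
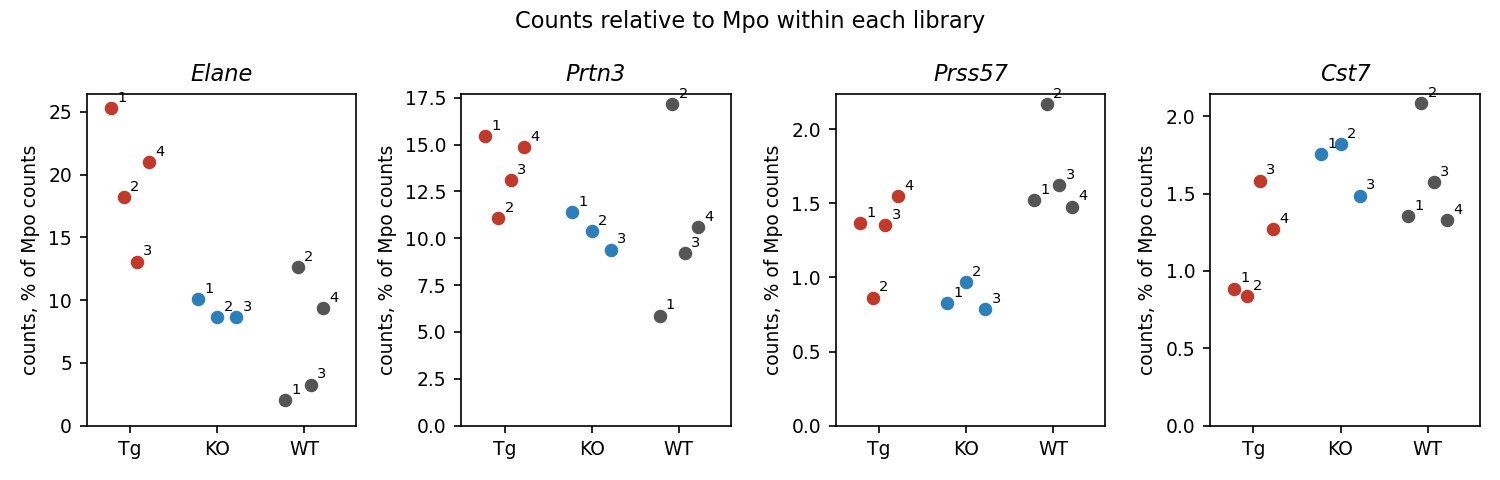
Counts of Elane, Prtn3, Prss57 and Cst7 as a percentage of the Mpo count in the same library (points are libraries) in Tg, KO and WT. Elane is the gene whose Tg libraries, at 13.1% to 25.3%, all lie above the KO and WT libraries.

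On chromosome 10 the genes between and beside the 3 proteases were read to see whether the rise extended over the region. From Prss57 to Elane the order is Prss57, Palm, Misp, Ptbp1, Plppr3, Prtn3, Elane, with Cfd and Med16 beyond. Ptbp1, a splicing regulator, stood at 624 CPM in Tg, 634 in KO and 616 in WT (log2 fold change of Tg over WT 0.02, SE 0.11), and Med16, a Mediator subunit, at 64.4, 68.1 and 67.0 CPM in those groups (-0.06, SE 0.08). Plppr3, which shares exonic bases with Prtn3, rose by 0.77 (SE 0.19, adjusted p = 0.0458 by edgeR), a call lost without any library but Tg replicates 3 and 4 and WT replicate 3 (adjusted p at most 0.134, when Tg replicate 1 is left out). Palm had a log2 fold change of 0.64 (SE 0.25, adjusted p = 0.160), and Misp and Cfd were at most 0.123 CPM on average in any group and were not tested.

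**Figure D5:**
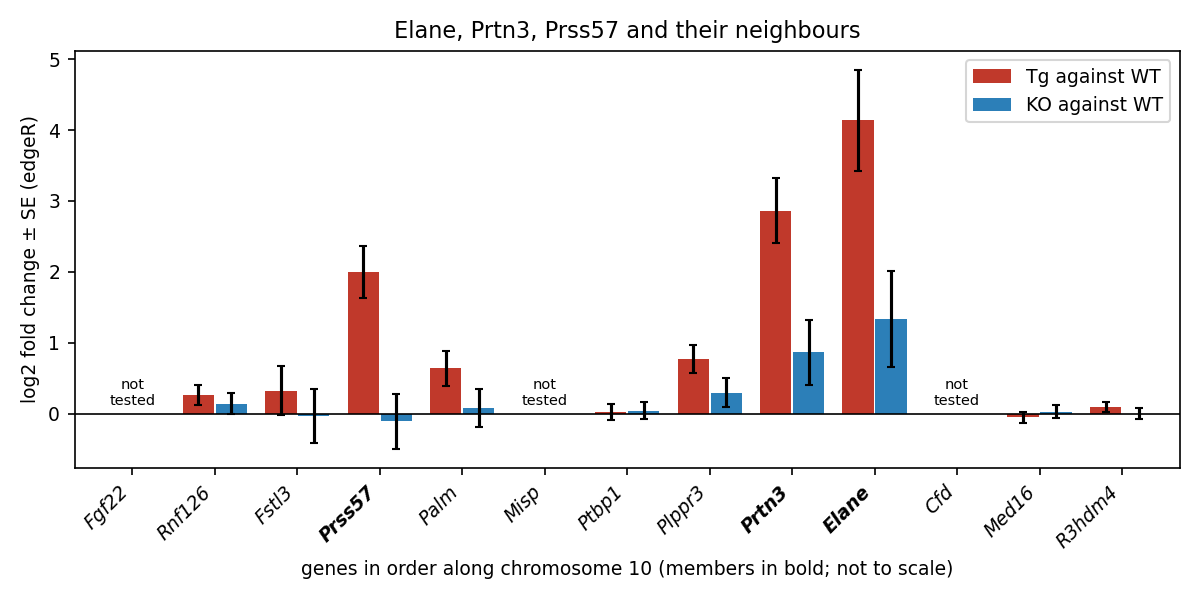
Log2 fold change (bars, with 1 SE to either side, edgeR) of Tg against WT and of KO against WT for the genes of the chromosome 10 region in their order along the chromosome. Prss57, Prtn3 and Elane stand at 2.00, 2.86 and 4.14 in Tg against WT, and Ptbp1 and Med16 between and beside them at 0.02 and -0.06.

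Over the 3 nearest protein-coding genes on each side of every member, 30 of 46 genes were tested. In Tg against WT 1 was called higher (Plppr3) and 1 lower (Acss1, beyond Cst7, at -0.63, SE 0.14, adjusted p = 0.0333, lost without any one of Tg replicates 1, 2 and 4, KO replicate 2 and WT replicates 2 and 4, up to 0.104). Their median log2 fold change was 0.09, against 2.86 for the members. Epx, the eosinophil peroxidase gene beside Mpo, averaged 25.96 CPM in Tg, 16.1 in KO and 14.3 in WT (log2 fold change of Tg over WT 0.86, SE 0.71, adjusted p = 0.519). Mcpt8, a basophil protease gene beside Ctsg, averaged 50.5 CPM in Tg, 45.5 in KO and 41.1 in WT (0.31, SE 0.55, adjusted p = 0.799). Leaving out Tg replicate 1 turned both signs, to -0.12 for Epx and -0.35 for Mcpt8. No neighbour was called in KO against WT (0 of 30 by edgeR), where 0.0233% of genes tested were called in either direction. Over all genes tested 2.54% were called higher and 2.39% lower in Tg against WT, and 2.63% and 3.06% in Tg against KO. Of the 30, 1 rose in Tg against KO, Ppp1r26 (0.66, SE 0.17, adjusted p = 0.0444, lost without any library but WT replicates 1 to 3, up to 0.173), and Acss1 fell (-0.71, SE 0.15, adjusted p = 0.0248, lost without any KO library or Tg replicate 1, 2 or 4, up to 0.0943).

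Fewer of the other genes of the granule programme were called. Of 15 genes for packing, activating and inhibiting granule proteases, 2 rose in Tg against WT, where 2.54% of genes tested were called higher. None was called lower, so the count in either direction was also 2, against 4.92% of genes tested. The median log2 fold change of the 15 was 0.33. Srgn, the serglycin core protein that binds the proteases in the granule, averaged 852 ± 198 CPM in Tg, 555 ± 37.1 in KO and 480 ± 70.1 in WT and rose by 0.83 (SE 0.17, adjusted p = 0.0216 by edgeR, lost without any one of Tg replicates 1 and 2 and WT replicates 1 and 2, up to 0.0685). Spint2, a protease inhibitor, rose by 0.32 (SE 0.08, adjusted p = 0.0497), lost without any library but Tg replicate 3 (up to 0.141). Ctsc, the cathepsin C that activates the serine proteases, averaged 94.9 ± 22.8 CPM in Tg, 109 ± 5.82 in KO and 86.6 ± 1.06 in WT, a log2 fold change of Tg over WT of 0.13 (SE 0.14, adjusted p = 0.622). Cd63, the tetraspanin of the azurophil granule membrane, had a log2 fold change of 1.05 (SE 0.31, adjusted p = 0.0770).

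Among 12 other genes of primary granule contents that were tested, 1 rose, Clec5a, a receptor of myeloid cells that is not itself a stored enzyme, by 3.27 (SE 0.70, adjusted p = 0.0265 by edgeR). That call was lost without the same libraries as that of Srgn (up to 0.0792), and the value was 4.02 without WT replicate 4. The lysosomal hydrolases of the list had smaller values that did not pass, as with Ctsd at 0.44 (SE 0.13) and Gusb at 0.59 (SE 0.18). The list's median log2 fold change was 0.42, and 2.54% of all genes tested were called higher.

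Of 19 genes of the later granules 2 were called higher in Tg against WT, where 2.54% of genes tested were, and 0 were called lower. At an unadjusted p under 0.05 by edgeR 4 were higher, as were 10.9% of genes tested, and 2 were lower. The median log2 fold change was 0.52. Wfdc21 rose by 6.84 (SE 1.24, adjusted p = 0.0152 by edgeR; 5.48 without Tg replicate 1 and 9.03 without WT replicate 4) and Lcn2, the siderophore-binding lipocalin, by 2.16 (SE 0.52, adjusted p = 0.0392, lost without any library but Tg replicate 3 or WT replicate 4, up to 0.113). Wfdc21 averaged 34.8 ± 42.1 CPM in Tg, 0.863 ± 0.247 in KO and 0.359 ± 0.595 in WT. The lowest WT library held 0 CPM, so the size of this fold change rests on WT values near the counting limit. Ltf, the lactoferrin gene and the classical marker of secondary granules, averaged 1.299 ± 0.566 CPM in Tg, 1.88 ± 0.355 in KO and 2.23 ± 1.28 in WT. Camp averaged 5.75 ± 4.04, 3.98 ± 1.42 and 5.10 ± 4.64 CPM in those groups, and Ngp 5.67 ± 4.62, 7.54 ± 1.28 and 8.78 ± 5.33. None of the 3 passed (adjusted p = 0.339, 0.918 and 0.643 for Tg against WT).

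Among 18 regulators of the granule programme, 3 rose in Tg against WT, where 2.54% of genes tested were called higher, and none was called lower. The 3 are all of the C/EBP family. Cebpe, the factor of late granulocyte maturation, averaged 29.2 ± 22.5 CPM in Tg, 5.06 ± 0.623 in KO and 2.92 ± 2.27 in WT and rose by 3.35 (SE 0.62, adjusted p = 0.0161 by edgeR). It was lost without WT replicate 1 (adjusted p = 0.0502) and the fold change was 2.69 with Tg replicate 2 left out and 4.00 with WT replicate 4 left out. Cebpd rose by 2.17 (SE 0.34, adjusted p = 0.0105) and Cebpb by 1.07 (SE 0.27, adjusted p = 0.0431, lost without any library but Tg replicate 3 or WT replicate 4, up to 0.120). Cebpa, which starts the granulocyte-monocyte programme, averaged 103.7 ± 37.4 CPM in Tg, 73.5 ± 3.12 in KO and 60.4 ± 24.7 in WT, which missed the threshold (0.78, SE 0.29, adjusted p = 0.145). Spi1, the PU.1 gene (0.49, SE 0.17, adjusted p = 0.118), Gfi1 (0.72, SE 0.21, adjusted p = 0.0698) and Myb (-0.02, SE 0.07, adjusted p = 0.886) did not pass either. Of 12 myeloid growth factor receptors tested 0 were called by edgeR. At an unadjusted p under 0.05, 3 were higher in Tg, as were 10.9% of genes tested, and 1 was lower. Csf3r, the G-CSF receptor, stood at 0.60 (SE 0.20, adjusted p = 0.102) and Flt3, the lower one, at -0.45 (SE 0.19, adjusted p = 0.204).

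Against KO, 2.63% of genes tested were called higher in Tg by edgeR, and 5.69% were called in either direction. Of the 15 packing and inhibitor genes 1 rose (Spint2, 0.54, SE 0.09, adjusted p = 0.00716), and of 12 other primary contents 0 did. Of 19 late granule genes 1 rose (Wfdc21), and of 18 regulators 2 did (Cebpd at 1.53, SE 0.37, adjusted p = 0.0367, and Cebpe at 2.53, SE 0.66, adjusted p = 0.0465). All 3 of these calls besides Spint2 were lost without any KO library and without Tg replicate 1 or 2, those of Cebpd and Cebpe without Tg replicate 4 too and that of Cebpe without WT replicate 1 (adjusted p up to 0.125, 0.140 and 0.160), and Wfdc21, at 5.35, stood at 4.06 with Tg replicate 1 left out. In KO against WT 0 genes of these lists were called by edgeR, where 0.0233% of genes tested were called in either direction.

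Markers of other cells were read in the same fit. Of 13 mature neutrophil markers tested 0 were called in Tg against WT by edgeR. An unadjusted p under 0.05 with a higher level in Tg was found for 2, as for 10.9% of genes tested. Fitted levels in Tg lay above WT for 9 of the 13, as for 50.8% of genes tested, with a median log2 fold change of 0.29. Against KO 0 were called, and 5 were higher at an unadjusted p under 0.05 by edgeR (10.7% of genes tested). The summed level of these markers was 249 to 855 CPM in Tg, 167 to 199 in KO and 122 to 277 in WT. S100a8, an alarmin of neutrophils and monocytes, averaged 236 ± 183 CPM in Tg, 21.3 ± 9.34 in KO and 18.3 ± 18.9 in WT (log2 fold change 3.71, SE 0.98, adjusted p = 0.0546). S100a9 (1.74, SE 0.86) and Cd177 (1.69, SE 0.85) were also fitted above WT and were not called. Ly6g, which defines mature mouse neutrophils, was at 0 counts in all 4 Tg libraries and at most 0.400 CPM elsewhere, and was not tested. Retnlg was at 0.396 ± 0.329 CPM in Tg, 0.580 ± 0.095 in KO and 0.593 ± 0.608 in WT.

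Of 14 monocyte and dendritic cell genes, 1 rose in Tg against WT (Ly6c2, 3.07, SE 0.73, adjusted p = 0.0376 by edgeR, lost without any library but Tg replicate 3 or WT replicate 4, up to 0.104, and 3.99 with WT replicate 4 left out) and 2 fell. Ccr2, the chemokine receptor of monocytes, fell by 1.92 in log2 units (SE 0.36, adjusted p = 0.0171, 0.0600 without Tg replicate 1), and Ctss by 1.17 (SE 0.23, adjusted p = 0.0210, lost without Tg replicate 1 or 2 or WT replicate 2, up to 0.0663). The summed level of this list was 610.4 to 1837 CPM in Tg, 1149 to 1697 in KO and 431 to 1287 in WT. In KO against WT 0 were called, but all 14 were fitted above WT (48.8% of genes tested), with a median of 0.64. Against KO 2 fell in Tg by edgeR (3.06% of genes tested did), Ccr2 (-3.19, SE 0.39, adjusted p = 0.00175) and Ctss (-1.66, SE 0.25, adjusted p = 0.00462). No single library ended either call. Of genes tested 2.54% were called higher in Tg against WT and 2.39% lower. Of 14 eosinophil, basophil and mast cell genes, Hdc, the histamine-forming decarboxylase, rose by 1.78 (SE 0.36, adjusted p = 0.0216, lost without Tg replicate 1 or WT replicate 1 or 2, up to 0.0637) and Il1rl1 fell by 0.79 (SE 0.17, adjusted p = 0.0291, lost without any one of Tg replicates 1 to 3 and WT replicates 1, 2 and 4, up to 0.0829).

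Some markers of cells that the lineage gate should remove were called lower in Tg against WT, as were 2.39% of genes tested. Of 10 B and plasma cell markers 2 were called lower (Jchain and Ighm), with a summed level of 207 to 324 CPM in Tg, 1486 to 6217 in KO and 349 to 5205 in WT. Likewise 4 of 10 macrophage markers fell (Cd5l, Mrc1, Spic and Hmox1; sums of 34.0 to 132, 46.04 to 163 and 55.3 to 248 CPM in those groups) and 2 of 10 erythroid markers (Hbb-bt and Alas2; 15.2 to 79.0, 94.5 to 138 and 56.9 to 241 CPM). Of 10 T and NK cell markers 3 fell (Ncr1, Lck and Klrb1c) and 2 rose (Nkg7 and Trbc1; sums of 153 to 279, 101 to 117 and 97.0 to 123 CPM). The calls of Ighm and Mrc1 were lost without any library but KO replicates 1 and 2 and WT replicate 3, that of Alas2 without any but Tg replicate 4, KO replicate 1 and WT replicate 3, and those of Cd5l, Hmox1, Hbb-bt and Trbc1 without 1, 4, 2 and 4 libraries. Called or not, fitted levels in Tg lay above WT for 0 of 10 B and plasma cell, 1 of 10 macrophage and 0 of 10 erythroid markers. For T and NK cell markers it was 3 of 10, and over all genes tested 50.8%. The median log2 fold changes of the 4 lists, in that order, were -2.78, -2.64, -1.91 and -1.64, against 0.01 over all genes tested. No marker of these lists was at 0 in all 11 libraries. The part of these cells in the result for the granule genes was not tested.

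The genes whose profile over the 11 libraries was most like the mean profile of the 9 were sought among 10250 other genes that averaged 5 CPM or more, by the root mean square difference of the centred log2 CPM. Hp, which encodes haptoglobin, a granule protein of neutrophils besides its role in plasma, was nearest at 0.28. Nrg1 (0.29), Dgat2 (0.31), F10 (0.37), Dmkn (0.47), Gpc1 (0.48), Ptpru (0.50) and Gda (0.51) followed. For scale, a gene with no variation would stand at 1.51, Ms4a3 and Prtn3 at 0.20 and 0.23, and Fcnb, the member least like the mean, at 1.93. Hp averaged 183 ± 137 CPM in Tg, 40.4 ± 6.04 in KO and 15.2 ± 10.6 in WT. These genes were chosen for their likeness over the same libraries, so their levels by genotype are a description.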

How the data were processed

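The values are raw counts for each gene symbol, deposited by the authors in one table of 11 libraries without normalisation. Per the labels' protocols, LSK cells were sorted on a BD FACSAria II and libraries, said to be from individual mice, were read as 2 × 150 bp. As 4 libraries held both Xist and Y-linked reads, what n counts is uncertain for them. Whether each came from 1 mouse was not tested. FastQC, Trimmomatic, STAR, HTSeq and mm10 are named in the submitters' processing notes; the sources used here do not give versions, annotation or strand setting. One edgeR 4.0.16 model (R 4.3.3; TMM, filterByExpr, quasi-likelihood test, no covariate) covered all libraries and 17183 genes. A call means a p under 0.05 after Benjamini-Hochberg adjustment over all genes tested, and SE is the log2 fold change divided by the root of F. The common biological coefficient of variation was 0.272. CPM values are TMM normalised; the limit of 3 counts uses library totals. Ratios to Mpo used a pseudocount of 0.5 counts and exact permutation tests. The fit was tested on simulated data. Promoters came from RefSeq (GRCm38.p6), gene positions from GENCODE M21.

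The members and the 13 gene lists were chosen with earlier results of these data known. Genes named are the members, Phf6, up to 4 genes of lowest p in Tg against WT per list, the 3 nearest protein-coding genes on each side of a member, the 8 genes most like the members' mean profile, and Xist and Y-linked genes. Besides these, Ctsc, Lyz2, Klrb1c, Ltf, Camp, Ngp, Cebpa, Spi1, Myb, Ly6g, Retnlg, Kit and Ly6a were chosen with values in view. Alternatives tried were limma-voom (limma 3.58.1), DESeq2 1.42.0, other scalings and filters, fits of the compared groups alone, a replicate block, a Y-linked covariate, robust empirical Bayes and each library left out. Leaving out 4 libraries was added after the data were examined. Protein sequences were not used here. Figures were drawn with matplotlib 3.10.9 (Python 3.11.15).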

Additional observations from a re-analysis of the deposited data

How the results depend on the processing

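The call of all 9 genes in Tg against WT held under DESeq2, RLE scaling, library totals, either filter and the Y-linked covariate, and 8 were called by limma-voom, with only the groups compared and with robust empirical Bayes. The count was 4 with the replicate number as a block, which the numbers do not support as a pairing: deviations of same-numbered libraries correlated at -0.208 to 0.0804 over 10 pairs. It was 0 without the 4 libraries with Xist and Y-linked reads, and 6 to 9 with 1 library left out. In Tg against KO the count of 3 became 9 under DESeq2, 1 under limma-voom, 7 with no filter, 5 with only the groups compared, 0 with the replicate block, 1 with the Y-linked covariate, 1 with robust empirical Bayes, 0 without the 4 libraries, and 0 to 9 with 1 library left out. In KO against WT it was 0 under each alternative, and no member was called lower in any. No direction turned, except for Prss57 in KO against WT (uncalled; -0.26 to 0.045 with 1 library left out, the highest without WT replicate 4). The cause of these shifts was not tested; the 4-library alternative leaves 1 WT library.

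Over all genes edgeR called 436 higher and 410 lower in Tg against WT, 452 and 526 in Tg against KO and 1 and 3 in KO against WT. DESeq2 called 903 and 916, 942 and 932, and 55 and 50, the replicate block 118 and 103, 124 and 179, and 0 and 1. With only the groups compared the first became 194 and 164 and the last 0 and 1, as did the last under limma-voom. Under the Y-linked covariate the second became 145 and 210. Without the 4 libraries the counts were 9 and 11, 119 and 245, and 2 and 4. With 1 library left out they were 125 (without Tg replicate 1) to 618 (Tg replicate 3) and 86 (Tg replicate 1) to 558 (WT replicate 3), 109 (KO replicate 2) to 523 (Tg replicate 3) and 178 (KO replicate 2) to 596 (WT replicate 3), and 0 to 2 and 1 to 3. Among the members depth limited only Fcnb, at 1 and 10 counts in WT replicates 1 and 3.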

Other observations

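Each gene's 4 Tg values and 4 WT values were screened for a library standing apart by Dixon's gap ratio (critical value 0.829 for 4 libraries), and 0 of the 18 sets held one; the 3 KO libraries were too few for the screen.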
